A study of Homo sapiens with 36 samples.

Results

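The step from 10 to 100 nM of a MEK inhibitor was taken from a dose series in LoVo cells. It compared 3 libraries at 100 nM with 3 libraries at 10 nM, 6 of the 36 libraries in all, and used every gene of the panel except the spike-in controls. LoVo is an established human colorectal cancer line. The cells grew in F-12K medium with 10% FBS and were exposed for 24 h to the inhibitor, which the study's text names as compound 33 of a published series, or to DMSO alone. Each of the 10 doses from 0.03 to 1000 nM had 3 libraries, and DMSO had 3 libraries on each of a pair of sequencing chips. For treated libraries the labels name no chip, so the chip of the 6 libraries of the step is not known here. RNA was measured by Ion AmpliSeq, in which short stretches of each transcript are amplified with a pair of primers per gene, starting from 10 ng of total RNA, with 18 samples in a pool. Expression is given as CPM, counts scaled to a common library size, and levels of different genes are not compared.

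MEK is the kinase that phosphorylates ERK, the last kinase of the RAS-RAF-MEK-ERK cascade. Active ERK raises transcription of growth genes such as MYC and cyclin D1 and, in the same sweep, of its own brakes: the DUSP phosphatases, which remove phosphate from ERK, and the Sprouty and SPRED proteins, which act higher in the cascade. In intestinal epithelium the pathway drives proliferation, and cells that leave the cycle take on goblet or absorptive features.

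Of 20802 genes, 12102 passed the filter on low counts and were tested by edgeR's quasi-likelihood method, with p-values adjusted over all of them after Benjamini and Hochberg. A gene was called at an adjusted p below 0.05. Between 10 and 100 nM, 622 genes were called, 5.14% of those tested: 216 were higher at 100 nM (1.78%) and 406 lower (3.35%). The changes were small, with a median size of 0.56 on the log2 scale among called genes, and 33 of the higher and 31 of the lower genes reached 2-fold. The median over all tested genes was 0.005. Against DMSO, 3249 genes (26.8%) were called at 10 nM and 4499 (37.2%) at 100 nM. The p-values reflect only how far libraries spread within the 12 groups of the series, since all 36 libraries were fitted together and not the 6 alone. What that spread covers is not known, since the labels speak of biological replicates without saying how cultures were separated. In bulk RNA, fewer cells of a kind and less RNA per cell cannot be told apart. The count of calls was lower without any 1 of the 6 libraries: 339, 343 and 536 without replicates 1, 2 and 3 of 10 nM, and 357, 444 and 395 without replicates 1, 2 and 3 of 100 nM. It was higher with only the 6 libraries fitted, at 1030, and at 1590 with the replicate number as a block as well. With that block and all 36 libraries it was 612.

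Total counts of the 6 libraries lay between 3253643 and 3959056, against 2972186 to 4751839 over the series, and 13997 to 14343 genes had counts. None of the 6 stood apart from its replicates: the SD of their deviations from the group mean was 0.135 to 0.169 on the log2 scale, against up to 0.279 elsewhere, where 5 libraries were above 0.2. The summed level of 9 colorectal epithelial markers, which include EPCAM, KRT8 and KRT19, was 4603 to 4872 CPM at 10 nM and 4544 to 4989 CPM at 100 nM, and in the step 1 of the 9 was called higher (CDX2) and 2 lower (CDH17 and CEACAM5), with values given further on. LoVo cultures should hold no other cell type. Fibroblast markers summed to 15.5 to 23.6 CPM at 10 nM and 31.8 to 38.3 CPM at 100 nM, from COL1A1, COL3A1 and LUM, while COL1A2, DCN, THY1, FAP and POSTN were at 0 counts. Blood cell markers summed to 46.5 to 52.4 CPM and 73.9 to 83.3 CPM, from LYZ and CD68, while PTPRC, CD3E and HBB were at 0 counts. Of the fibroblast and blood cell lists, LUM and LYZ (0.68, SE 0.159, with an adjusted p up to 0.0517 on leaving out 1 library) were called higher in the step, and endothelial markers summed to at most 0.534 CPM in any of the 6 libraries. The part of these markers in the other results was not tested.

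Most of the genes that read out ERK activity still fell between 10 and 100 nM. Of the 10 genes of a MAPK activity list, 6 were called lower and none higher, against 3.35% of all tested genes called lower, and the list median was -0.98 against 0.005 over all tested genes. These 6 were called whichever library of the step was left out. DUSP6, the cytoplasmic phosphatase that inactivates ERK, stood at 16.3, 11 and 13.4 CPM in the libraries at 10 nM and at 3.47, 2.93 and 4.18 CPM at 100 nM. The doses did not overlap, and the log2 fold change was -1.92 (SE 0.213, edgeR adjusted p = 9.21e-09). ETV4, an ETS family transcription factor induced by ERK, went from 20.1, 22.2 and 21.6 CPM to 5.34, 3.47 and 6.14 CPM, a 4.23-fold fall and the largest among called genes (log2 fold change -2.08, SE 0.222). Its relative ETV5 varied more between libraries, at 16, 11.8 and 25.8 CPM against 2.67, 5.33 and 6.88 CPM, but every library at 100 nM lay below every library at 10 nM (-1.82, SE 0.278).

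DUSP4, the nuclear relative of DUSP6, fell from 60.6, 52.7 and 64.7 CPM to 26.7, 26.4 and 29.7 CPM (log2 fold change -1.10, SE 0.126). The receptor tyrosine kinase EPHA2 fell from 235.9, 231.8 and 225.7 CPM to 119.6, 127.5 and 136.1 CPM (-0.86, SE 0.123). CCND1, which encodes cyclin D1, fell by less, from 289.0, 299.9 and 280.3 CPM to 195.1, 225.7 and 206.3 CPM (-0.47, SE 0.098, edgeR adjusted p = 0.00131). CCND1 had not been called at 3 nM against DMSO, where its log2 fold change was 0.05, while DUSP6, ETV4, ETV5, DUSP4 and EPHA2 were all called lower there, by -1.56, -0.71, -1.09, -0.90 and -0.80. The other 4 members did not pass the test. SPRY2, a Sprouty brake on receptor signalling, stood at 19.5, 23.3 and 24.0 CPM and then 19.0, 21.6 and 22.8 CPM (-0.07, SE 0.151). PHLDA1 was at 0.13 (SE 0.096) and EPHA4 at -0.14 (SE 0.345), and both had doses that overlapped. SPRY4 was below 1 CPM in all 6 libraries, too low for a direction.

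Other brakes and early targets of the pathway followed in part. Of 11 tested DUSP genes, 4 were called lower (36.4%, against 3.35% of all tested genes), with DUSP5 at -0.56 (SE 0.154) and DUSP7 at -0.53 (SE 0.151) beside DUSP6 and DUSP4. The list median was -0.04. SPRED1 fell from 23.6, 24.1 and 31.9 CPM to 14.9, 15.7 and 15 CPM (-0.80, SE 0.179) and SPRED2 by -0.53 (SE 0.141), so that 2 of the 4 tested Sprouty and SPRED genes were called lower (50%, against 3.35% of all tested genes). FOSL1, the AP-1 subunit that responds to ERK, fell (-0.82, SE 0.166), while 2 other members of the AP-1 and immediate early list of 10 were called higher, FOSL2 at 0.41 (SE 0.126) and ATF3 at 0.41 (SE 0.126). In that list 20% were called higher and 10% lower, against 1.78% and 3.35% of all tested genes. Among 16 ETS factors, ETV4 and ETV5 were lower (12.5%) and ETS2 (0.47, SE 0.095) and the epithelial factor ELF3 (0.62, SE 0.159) higher (12.5%). None of 15 genes of the RAS, RAF, MEK and ERK core was called, against 5.14% of all tested genes, with MAP2K2 at -0.03 (SE 0.102). ERBB3, a receptor that pairs with other ERBB receptors, was called higher (0.33, SE 0.093). It was the only 1 of 9 EGFR ligands and ERBB receptors called (11.1%, against 1.78% of all tested genes called higher). The calls of DUSP5, DUSP7, SPRED2, ELF3, ERBB3, FOSL2 and ATF3 were each lost when 3 or more of the 6 libraries were left out in turn, with adjusted p up to 0.112, 0.132, 0.0627, 0.0927, 0.201, 0.184 and 0.166 over the settings tried. FOSL2 also lost its call with limma-voom (0.0503), with upper-quartile scaling (0.056), with the replicate number as a block (0.0538) and with a filter of at least 1 CPM in 3 libraries (0.0658). ERBB3 and ATF3 also lost theirs with no filter on low counts, and ATF3 with the 1 CPM filter (0.051).

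MYC, the growth regulator whose transcript depends on ERK, was among the clearest falls of the step. Its 3 libraries at 10 nM held 183.5, 160.7 and 141.8 CPM and those at 100 nM 76.1, 78.4 and 69.5 CPM, with no overlap (log2 fold change -1.12, SE 0.100, edgeR adjusted p = 1.8e-11). It was the only member of a 12-gene MYC network list to be called (8.3%, against 3.35% of all tested genes called lower). The median of that list, which holds MYC's partners and relatives, was 0.04. MYC was also called at 30 against 10 nM (-0.62, SE 0.100) and at 100 against 30 nM (-0.50), as well as at 300 against 30 nM (-0.61).

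**Figure D1:**
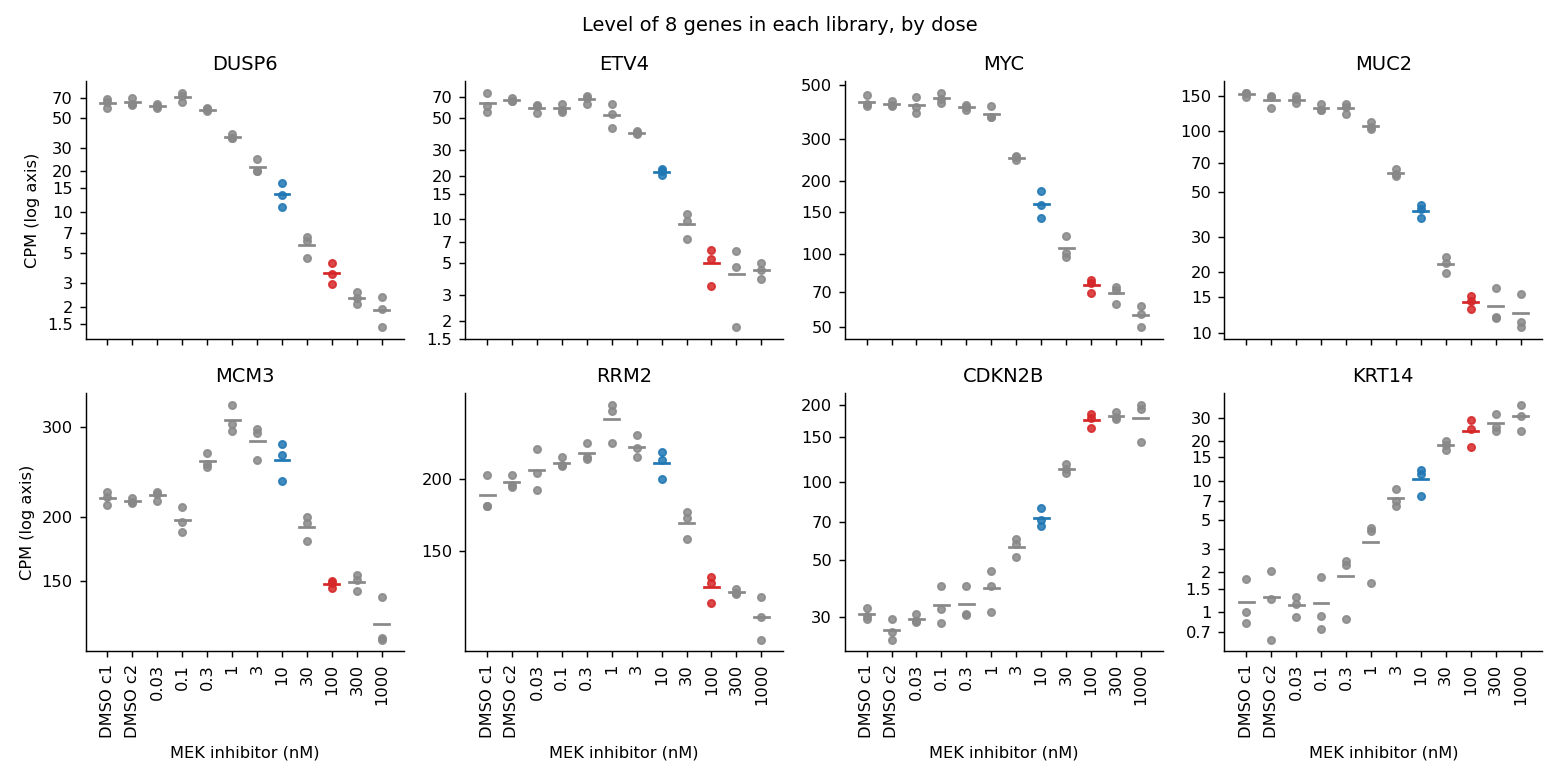
Level of 8 genes in each library, in CPM on a log axis that differs between panels, against the dose in nM, with DMSO libraries of chip 1 and chip 2 at the left. Points are libraries, short lines are means of 3, blue is 10 nM and red 100 nM; DUSP6, ETV4, MYC and MUC2 fall over the upper doses, MCM3 and RRM2 fall after a rise at lower doses, and CDKN2B and KRT14 rise.

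Many DNA replication genes fell. Replication forks are opened by the MCM helicase with CDC45 and the GINS proteins, copied by polymerases held by the clamp PCNA, and supplied with nucleotides by ribonucleotide reductase and thymidylate synthase. Of 42 tested genes of this machinery, 25 were called lower and 0 higher (59.5% lower, against 3.35% of all tested genes), and 41 had a negative sign. The list median was -0.52, against 0.005 over all tested genes. The called members covered each stage: MCM3, MCM4, MCM6, MCM7 and MCM10 with CDC45, CDT1, ORC6 and GINS1 at the origin, the polymerase subunits POLA1, POLA2, POLD1, POLD2 and POLE, PCNA and its loader RFC4, the flap endonuclease FEN1 and the nick-sealing ligase LIG1, the chromatin assembly factors CHAF1A and CHAF1B with UHRF1, and the nucleotide enzymes RRM2, TYMS and TK1 with UNG. Their log2 fold changes ran from -0.90 to -0.37. With 1 library of the step left out in turn, 19 to 25 members were called lower.

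MCM3, a subunit of the helicase, stood at 235.7, 264.1 and 277.0 CPM at 10 nM and at 150.3, 145.4 and 148.6 CPM at 100 nM (log2 fold change -0.81, SE 0.087, edgeR adjusted p = 4.8e-09). MCM7 fell from 284.3, 290.3 and 278.8 CPM to 167.3, 168.3 and 166.5 CPM (-0.77, SE 0.100), and the spread at either dose was a small part of the difference. CDC45 fell from 46.6, 48.7 and 40.1 CPM to 23, 24.3 and 25.3 CPM (-0.90, SE 0.135), the largest fall of the list. RRM2, the S-phase subunit of ribonucleotide reductase, fell from 222.5, 200.5 and 215.9 CPM to 122.2, 135.8 and 132.4 CPM (-0.71, SE 0.088), and its log2 fold change was as large without any 1 library, at -0.75 to -0.67 over the settings tried. E2F1, the factor that turns on many of these genes, fell from 47.8, 56.4 and 51.3 CPM to 29.1, 33.1 and 35.9 CPM (-0.67, SE 0.137). It was the only 1 of 13 E2F and RB genes called (7.7%, against 3.35% of all tested genes called lower). The doses were apart in each of these 5 genes.

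At 3 nM some of the replication genes had moved the other way. At 3 nM against DMSO, a comparison that shares no library with the step, 14 of the 42 genes were called higher and 0 lower, against 6.66% of all tested genes called higher, and the list median was 0.32. Of the 25 genes that fell between 10 and 100 nM, 12 had been called higher at 3 nM and 0 lower. MCM3 was at 0.38 there, PCNA at 1.05, FEN1 at 0.58 and TYMS, which makes the thymidine precursor dTMP, at 0.54, before falling by -0.81, -0.50, -0.78 and -0.66 in the step. Relative to DMSO the list median was 0.16 to 0.18 in the 3 libraries at 10 nM and -0.51 to -0.38 in the 3 at 100 nM, so this median moved from above to below the solvent controls. The members were mixed at 10 nM, where 11 of the 42 were called higher than DMSO and 8 lower, against 13.5% and 13.3% of all tested genes. At 300 against 30 nM, all 42 genes were lower by sign, with a median of -0.40, and 7 were called, against 0.331% of all tested genes called lower, among them MCM3 (-0.36), MCM7 (-0.44) and RRM2 (-0.40).

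The 250 bases before the start of each gene were read from RefSeq (GRCh38.p14), one start per gene, and searched on both strands for 4 words of the E2F binding motif. These were the word TTTGGCG, then the word TTTCCCG, then the word TTTCGCG and lastly the word TTTGCCG, and matches on opposite strands can share bases. The promoters of 3 of the 4 replication genes given by library are shown, since members of this list were higher at low and lower at high doses, each 5′ to 3′ on the strand of the gene, with the matches in capitals.
MCM3, chr6:52284743-52284992, minus strand: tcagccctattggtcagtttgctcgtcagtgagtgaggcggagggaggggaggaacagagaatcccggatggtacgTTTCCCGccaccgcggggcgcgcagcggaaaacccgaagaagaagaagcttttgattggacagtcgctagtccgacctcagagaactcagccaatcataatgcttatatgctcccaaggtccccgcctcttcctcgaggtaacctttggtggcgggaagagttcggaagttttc
MCM7, chr7:100101398-100101647, minus strand: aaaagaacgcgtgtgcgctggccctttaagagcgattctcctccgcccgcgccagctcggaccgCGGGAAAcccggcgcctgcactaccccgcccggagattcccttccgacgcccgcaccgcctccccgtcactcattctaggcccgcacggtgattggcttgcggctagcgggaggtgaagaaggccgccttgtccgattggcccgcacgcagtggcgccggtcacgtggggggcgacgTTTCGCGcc
CDC45, chr22:19479670-19479919, plus strand: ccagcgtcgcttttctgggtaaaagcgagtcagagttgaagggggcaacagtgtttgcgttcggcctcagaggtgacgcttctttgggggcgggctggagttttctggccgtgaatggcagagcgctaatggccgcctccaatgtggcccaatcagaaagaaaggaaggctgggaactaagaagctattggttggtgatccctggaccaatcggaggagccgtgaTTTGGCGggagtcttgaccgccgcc
MCM3 and CDC45 held 1 match each and MCM7 held 2. Of the 25 called replication genes, 24 had a promoter in the table and 12 of these held a word (50%), as did 16 of 36 over the list (44.4%). The share was 11.1% of the 8730 tested genes with a promoter in the table, 7.35% of all 27305 promoters, 9.38% of 32 for mitosis genes and 7.55% of 53 for ribosome biogenesis genes. RRM2 held no match in this window. A match describes the letters and not binding, which was not measured.

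Genes that carry out mitosis were called about as often as all tested genes. Of 39 tested mitosis genes, 1 was called lower (2.6%, against 3.35%), the survivin gene BIRC5 (-0.30, SE 0.095). That call was lost whichever of the 6 libraries was left out and with no filter on low counts, with an adjusted p up to 0.239. Of the 39, 31 had a negative sign, and the list median was -0.15. Relative to DMSO the list median was -0.36 to -0.30 in the libraries at 10 nM and -0.52 to -0.43 in those at 100 nM, ranges that do not overlap. At 3 nM against DMSO, 4 of the 39 mitosis genes were called lower, against 6.68% of all tested genes, and 0 higher, with a median of -0.20. The contrast with the replication genes was not tested as a difference between lists.

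Cell cycle regulators at the entry to S phase moved in opposite directions. CDKN2B, which encodes the CDK4 and CDK6 inhibitor p15, rose from 79.2, 67.9 and 71.7 CPM to 178.3, 184.6 and 162.1 CPM, 2.40-fold (log2 fold change 1.26, SE 0.118, edgeR adjusted p = 4.43e-11). Its rise was called in both parts of the step, at 0.63 from 10 to 30 nM and 0.63 from 30 to 100 nM, and again at 0.68 from 30 to 300 nM. CDK4 fell from 264.8, 246.5 and 207.1 CPM to 162.8, 179.8 and 154.3 CPM (-0.53, SE 0.101), and CDK2 by less (-0.36, SE 0.100). With CCND1, 3 of 15 G1 regulators were called lower and CDKN2B alone higher (20% and 6.7%, against 3.35% and 1.78% of all tested genes). The call of CDK2 was lost on leaving out any 1 of 5 libraries and with no filter on low counts, with an adjusted p up to 0.0937.

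**Figure D2:**
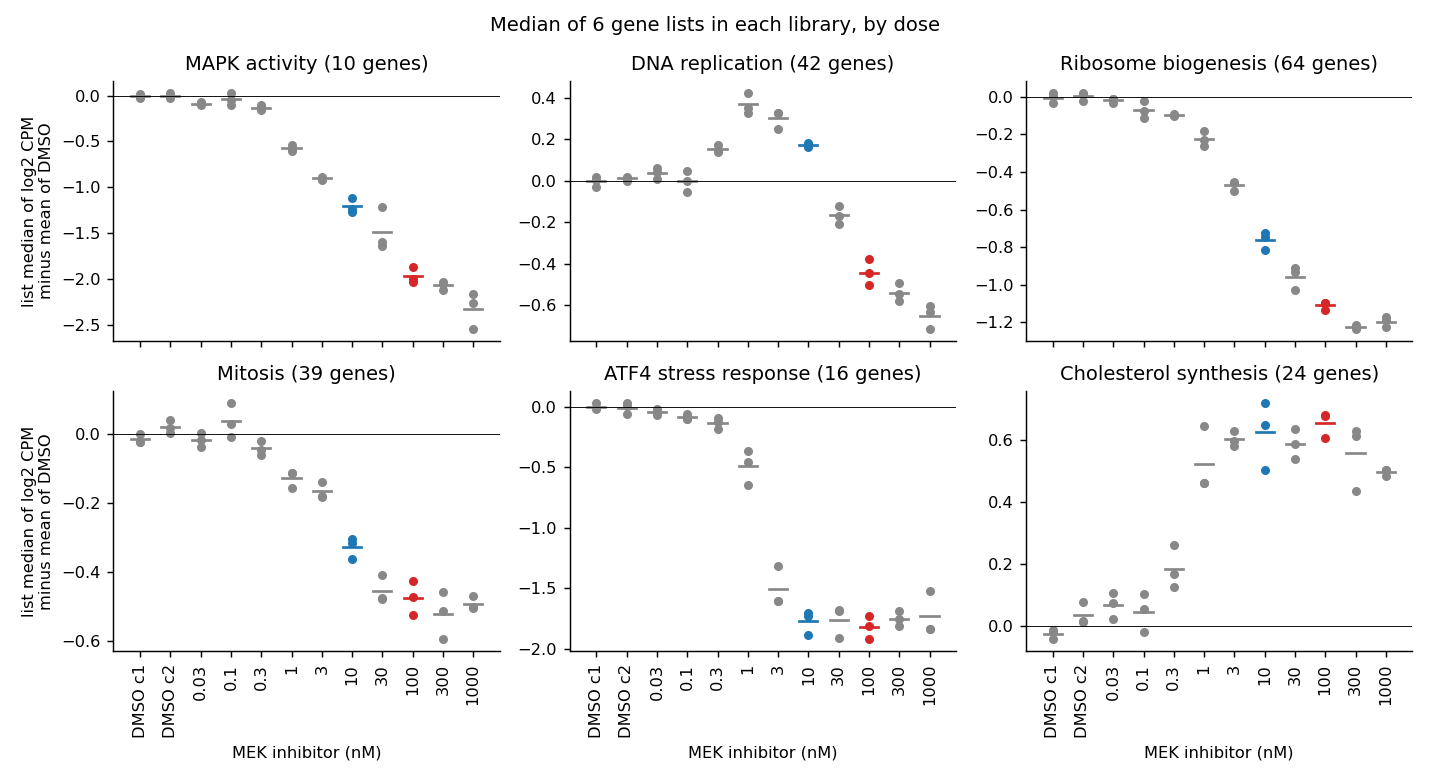
Median of each of 6 gene lists in each library (log2 CPM minus the mean of the DMSO libraries, on a linear axis that differs between panels) against the dose in nM; points are libraries, short lines means of 3, blue 10 nM and red 100 nM. The libraries of 10 and 100 nM do not overlap for MAPK activity, DNA replication, ribosome biogenesis and mitosis, and they overlap for ATF4 and cholesterol genes.

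Ribosome biogenesis, the making of ribosomes in the nucleolus, fell in as many genes as DNA replication but on top of an earlier fall. Of 64 tested genes, 25 were called lower and 0 higher (39.1% lower, against 3.35% of all tested genes), 58 had a negative sign, and the list median was -0.37, against 0.005 over all tested genes. They covered ribosomal RNA transcription (POLR1A, POLR1C and TCOF1, at -0.73, SE 0.127, -0.72, SE 0.191, and -0.78, SE 0.117), RNA modification (DKC1, NHP2 and NOP56, at -0.85, -0.80 and -0.53) and assembly of the subunits (BYSL, GNL3, RRS1 and NOB1 among others). NOLC1, a nucleolar chaperone, fell from 216.1, 204.0 and 217.5 CPM to 118.5, 141.1 and 129.2 CPM (-0.71, SE 0.105). TCOF1, the nucleolar protein named for Treacher Collins syndrome, fell from 95.3, 90.6 and 94.5 CPM to 55.5, 50.1 and 57.7 CPM, and MYBBP1A from 87.7, 80.5 and 88.1 CPM to 51.0, 51.5 and 56.5 CPM (-0.69, SE 0.109). In all 3 the doses were apart.

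The same list had been called lower in 34 of 64 genes at 3 nM against DMSO, against 6.68% of all tested genes, with a median of -0.46. Of the 25 genes lower in the step, 17 were called lower at 3 nM and 0 higher. Relative to DMSO the list median lay between -0.81 and -0.73 in the libraries at 10 nM and between -1.14 and -1.09 at 100 nM. At 300 against 30 nM, 58 of 64 were lower by sign, with a median of -0.23, and 2 were called lower, against 0.331% of all tested genes. The count in the step was 16 without replicate 1 of 10 nM and also 16 without replicate 1 of 100 nM. Among the proteins of the ribosome itself, of 74 tested cytosolic ribosomal protein genes 1 was called lower (1.4%, against 3.35% of all tested genes), and the median was 0.01. This was RPS26 (-0.32, SE 0.096), whose call was lost on leaving out any 1 of 5 libraries and with no filter on low counts, with an adjusted p up to 0.323. Of 72 mitochondrial ribosomal protein genes, 5 were called lower (6.9%), with MRPL12 at -0.59 (SE 0.105) and MRPS26 at -0.47 (SE 0.111), and the median was -0.12.

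**Figure D3:**
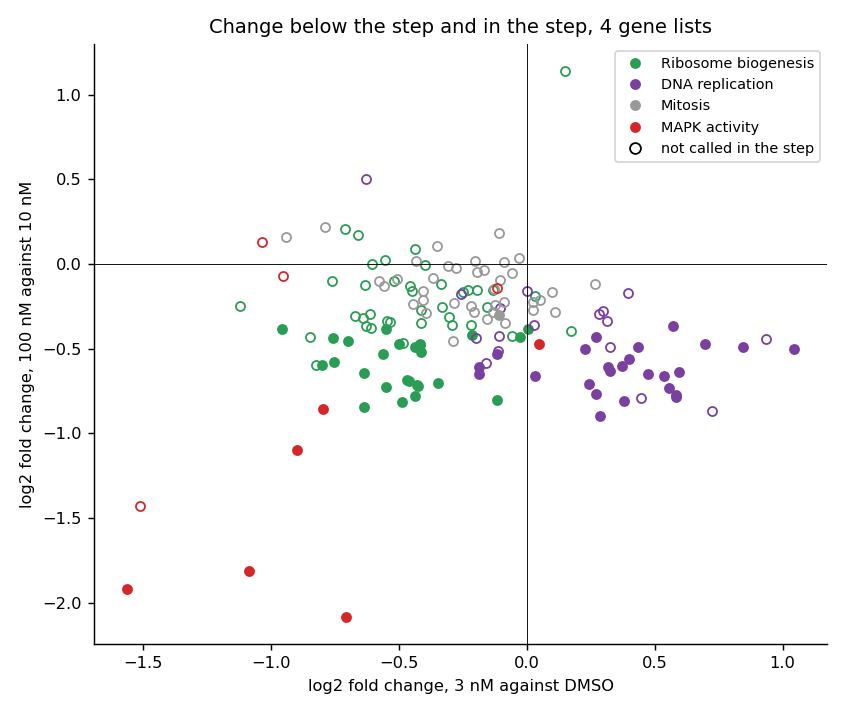
Log2 fold change of each tested gene of 4 lists at 3 nM against DMSO (x axis) and at 100 against 10 nM (y axis), from libraries that are not shared. Filled points were called in the step and open ones were not; DNA replication genes called lower lie mostly right of 0 and ribosome biogenesis genes mostly left of it.

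Some enzymes of nucleotide synthesis fell. Of 21 tested genes of purine and pyrimidine synthesis, 6 were called lower and 0 higher (28.6% lower, against 3.35% of all tested genes), 15 were not called, and the list median was -0.32. CAD, which catalyses the opening reactions of pyrimidine synthesis, stood at 97.6, 99.2 and 92.6 CPM at 10 nM and at 55, 50.4 and 48.9 CPM at 100 nM (log2 fold change -0.91, SE 0.115, edgeR adjusted p = 1.9e-07). The doses were well apart. In the same pathway CTPS1 (-0.67, SE 0.131), DHODH (-0.68, SE 0.208) and UMPS (-0.47, SE 0.117) were lower, and in purine synthesis PFAS (-0.60, SE 0.141) and PAICS (-0.47, SE 0.128). At 3 nM against DMSO 5 of the 21 had been called lower, against 6.68% of all tested genes, and only 1 of the 6, PFAS, was among them (-0.51). UMPS lost its call without replicate 3 of 10 nM or replicate 1 of 100 nM, with an adjusted p up to 0.122. The calls of DHODH and PAICS were not followed over other settings.

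Of 15 genes of serine synthesis and folate metabolism, which supply carbon units for nucleotides, 6 were called lower and 0 higher (40% lower, against 3.35% of all tested genes), with a median of -0.29. MTHFD1, the cytosolic folate enzyme, fell from 201.9, 191.9 and 179.5 CPM to 98.2, 118.4 and 105.9 CPM (-0.83, SE 0.122). PHGDH, the entry enzyme of serine synthesis, fell from 438.4, 410.9 and 356.5 CPM to 239.9, 271.0 and 242.2 CPM (-0.68, SE 0.100). MTHFD2, a mitochondrial enzyme of folate metabolism, fell from 378.4, 353.4 and 352.9 CPM to 260.8, 262.5 and 261.6 CPM (-0.47, SE 0.083), and PSAT1 and SHMT2 were also called (-0.43 and -0.38), as was TYMS. The doses were apart in each of the 3 genes given by library. MTHFD1 was not called at 3 nM against DMSO (-0.13), while PHGDH and MTHFD2 were (-0.63 and -1.26).

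Genes of the ATF4 amino acid response had their fall below 10 nM. ATF4 is the factor that raises amino acid synthesis and transport when amino acids are short. Of 16 members, 14 had been called lower at 3 nM against DMSO, against 6.68% of all tested genes, with a median of -1.60. The list median relative to DMSO was -1.88 to -1.70 at 10 nM and -1.92 to -1.73 at 100 nM, ranges that overlap. In the step 1 of 16 was called lower (6.2%, against 3.35% of all tested genes), asparagine synthetase ASNS (-0.38, SE 0.115). That call was lost when only the compared libraries were fitted (adjusted p = 0.0556), with limma-voom (0.0574), with no filter on low counts (0.0806) and on leaving out any 1 of 5 libraries. Of 20 aminoacyl-tRNA synthetases, 4 were called lower (20%, against 3.35% of all tested genes), with VARS at -0.57 (SE 0.119) and GARS at -0.41 (SE 0.102). Their median was -0.19, after 15 of the 20 had been called lower at 3 nM, against 6.68% of all tested genes. Among 16 amino acid transporters, SLC1A5, the glutamine carrier, fell from 179.4, 180.7 and 155.5 CPM to 116.1, 128.8 and 114.0 CPM (-0.52, SE 0.103), SLC1A4 (-0.41, SE 0.108) and SLC7A2 (-0.69, SE 0.197) were also lower, and SLC7A8 was higher (0.60, SE 0.152). Of the transporters 18.8% were called lower and 6.2% higher, against 3.35% and 1.78% of all tested genes. In the polyamine list of 9, SRM, the spermidine synthase, fell (-0.60, SE 0.123), and ODC1 and AMD1 were called at -0.28 (SE 0.085) and -0.34 (SE 0.099). These 3 were 33.3% of that list, against 3.35% of all tested genes called lower. The calls of GARS, SLC1A4, SLC7A2, SLC7A8, ODC1 and AMD1 each depended on single libraries, with adjusted p up to 0.0937, 0.107, 0.196, 0.0937, 0.222 and 0.174. ODC1 and AMD1 also lost theirs with no filter on low counts (0.139 and 0.0718).

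**Figure D4:**
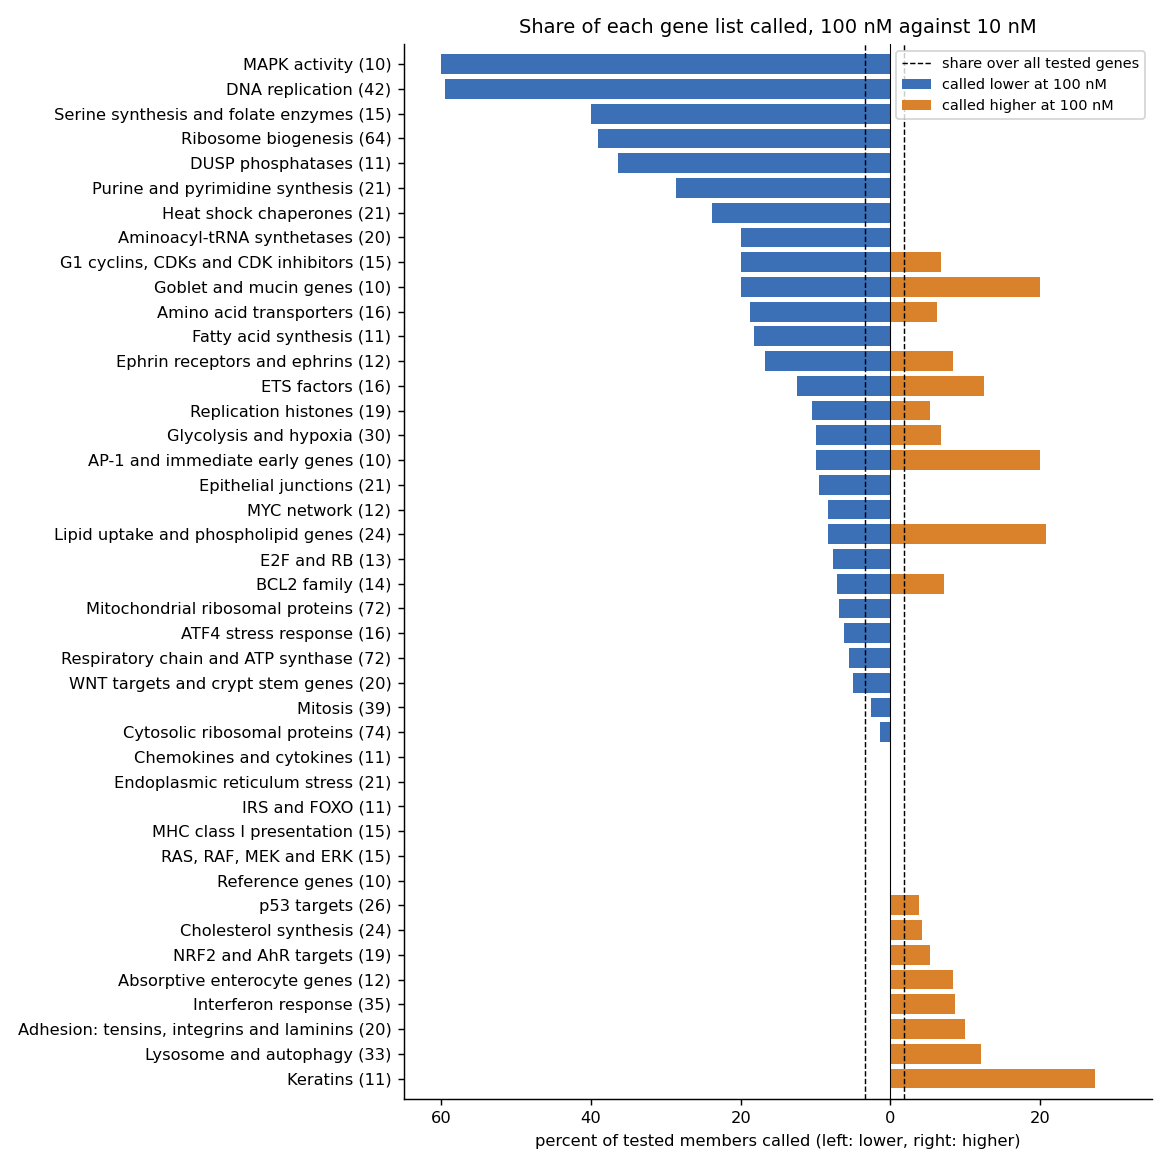
Percent of the tested members of each gene list called lower (left) or higher (right) at 100 against 10 nM, for lists of at least 10 tested genes, with the number tested in brackets. Dashed lines mark the share over all tested genes, 3.35% lower and 1.78% higher; MAPK activity and DNA replication reach about 60% lower.

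Lipid genes moved in different directions within 1 list. Cholesterol synthesis, which had 16 of 24 genes called higher at 3 nM (against 6.66% of all tested genes), had overlapping libraries in the step. Its list median relative to DMSO was 0.50 to 0.72 at 10 nM and 0.61 to 0.68 at 100 nM. In the step 1 gene was called higher (4.2%, against 1.78% of all tested genes), the squalene synthase FDFT1 (0.37, SE 0.098). That call was lost without replicate 1 or 2 of 10 nM or replicate 1 of 100 nM, with an adjusted p up to 0.0844. Fatty acid synthase FASN fell from 413.1, 362.2 and 356.2 CPM to 261.3, 271.5 and 257.4 CPM (-0.52, SE 0.112), to -0.03 relative to DMSO, after a called rise at 3 nM (0.62). Among 24 genes of lipid uptake, storage and oxidation, 5 were called higher and 2 lower (20.8% and 8.3%, against 1.78% and 3.35% of all tested genes). CD36, the fatty acid transporter, rose from 19.5, 20.05 and 14.3 CPM to 37.6, 40.3 and 38.1 CPM (1.10, SE 0.159) and hepatic lipase LIPC from 40.2, 35.3 and 47.1 CPM to 75.5, 79.5 and 79.6 CPM (0.94, SE 0.142). LPIN2, PDK4 and PNPLA2 were also higher (0.57, SE 0.127, 0.55, SE 0.163, and 0.30, SE 0.085). CPT1A, which admits fatty acids to mitochondria, was among those lower (-0.47, SE 0.124).

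Of 10 tested goblet and mucin genes, 2 were called higher and 2 lower, against 1.78% and 3.35% of all tested genes, and 6 were not called, with a list median of 0.12. The lower ones were MUC2 and REG4. MUC2, the gel-forming mucin, went from 42.8, 36.9 and 41.3 CPM to 14.4, 15.2 and 13.0 CPM (log2 fold change -1.50, SE 0.135, edgeR adjusted p = 1.8e-11), and REG4, a secreted lectin of the gut, from 577.9, 599.3 and 601.3 CPM to 248.0, 266.7 and 256.2 CPM (-1.21, SE 0.109). The higher ones were the membrane mucins MUC13 and MUC20. MUC13 went from 360.6, 382.3 and 439.8 CPM to 605.9, 617.7 and 613.1 CPM (0.64, SE 0.109) and MUC20 from 4.37, 4.54 and 9.11 CPM to 13.3, 12.8 and 14.5 CPM (1.19, SE 0.253). No library at 100 nM overlapped those at 10 nM in any of the 4. All 4 were called the same way at 3 nM against DMSO, at -1.25, -0.69, 0.93 and 1.94. CDX2, the transcription factor of intestinal identity, rose from 206.5, 199.2 and 212.6 CPM to 273.0, 286.2 and 271.4 CPM (0.43, SE 0.092). It was the only called gene of 12 in the absorptive enterocyte list (8.3% higher, against 1.78% of all tested genes).

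Surface and junction proteins of the epithelium changed gene by gene. CEACAM6, a cell adhesion molecule and tumour marker, fell from 27.4, 27 and 22.5 CPM to 10.4, 9.07 and 10.3 CPM (-1.37, SE 0.167), and its relative CEACAM5 by -0.36 (SE 0.107). PKP2, a plaque protein of desmosomes, was at 51.8, 50.5 and 51.0 CPM at 10 nM and at 25.9, 26.1 and 25.5 CPM at 100 nM (-0.98, SE 0.142). It had not been called at 3 nM (-0.01). With CDH17 (-0.34, SE 0.094), 2 of 21 junction genes were called, both lower (9.5%, against 3.35% of all tested genes). EPHA1 rose from 74.3, 82.3 and 75.0 CPM to 165.2, 141.1 and 141.2 CPM (0.95, SE 0.122) while EPHA2 and EPHB2 (-0.42, SE 0.118) were lower. Of 12 ephrin receptors and ephrins, 1 was thus called higher and 2 lower (8.3% and 16.7%, against 1.78% and 3.35% of all tested genes). An antisense gene overlaps EPHA1, and how counting treated the strand is not given in the sources used here, so their reads cannot be told apart. Calls of CEACAM5, CDH17 and EPHB2 were lost on leaving out any 1 of at least 4 libraries, with adjusted p up to 0.175, 0.109 and 0.18.

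Of 11 tested keratins, 3 were called higher and 0 lower (27.3% higher, against 1.78% of all tested genes), and 4 of the 11 had a negative sign. KRT14, a keratin of basal and stratified epithelium, rose from 7.57, 12 and 11.2 CPM to 18.1, 29.1 and 24.8 CPM (1.22, SE 0.229), after a called rise at 3 nM (2.54). KRT16 was low, at 1.17, 0.80 and 0.30 CPM and then 2.14, 2.67 and 4.18 CPM (1.94, SE 0.504), and KRT80 was at 0.35 (SE 0.107). KRT14 and KRT16 have near-identical copies whose amplicons could share reads. Of 20 adhesion genes, LAMB3, a chain of an epithelial laminin, rose from 190.5, 200.5 and 191.6 CPM to 263.7, 272.1 and 266.8 CPM (0.46, SE 0.087), having been called lower at 3 nM (-0.36), and its partner integrin ITGB4 was at 0.29 (SE 0.090). These 2 were the only adhesion genes called (10% higher, against 1.78% of all tested genes). KRT16, KRT80 and ITGB4 lost their calls on leaving out any 1 of 3, 5 and 6 libraries, with adjusted p up to 0.118, 0.183 and 0.203. KRT80 and ITGB4 also lost theirs with no filter on low counts (0.075 and 0.091) and with a stricter filter, and ITGB4 with the replicate number as a block (0.0536).

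In the BCL2 family, a pro-survival and a pro-apoptotic gene moved apart. BCL2, which guards mitochondria against apoptosis, fell from 41.4, 38.2 and 23.1 CPM to 14.9, 18.9 and 12.5 CPM (log2 fold change -1.15, SE 0.190, edgeR adjusted p = 4.08e-05). BMF, a BH3-only protein that counters it, rose from 36.4, 29.4 and 29.2 CPM to 56.6, 69.9 and 58.2 CPM (0.96, SE 0.136, edgeR adjusted p = 2.76e-06). The doses were apart in both genes, and the other 12 of 14 tested members were not called. Members called higher and lower were 7.1% each, against 1.78% and 3.35% of all tested genes. BMF had already been called higher at 3 nM (1.25), whereas BCL2 stood at -0.08 there. Both were called again at 300 against 30 nM, at -0.82 and 0.68.

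The other functions showed scattered calls. Of 33 lysosome and autophagy genes, 4 were called higher and 0 lower (12.1% higher, against 1.78% of all tested genes), with a median of 0.13. SQSTM1, the autophagy receptor p62, went from 548.8, 539.7 and 551.5 CPM to 731.6, 754.6 and 771.0 CPM (0.46, SE 0.094). The others were NEU1 (0.45, SE 0.103), GABARAPL1 (0.75, SE 0.182) and PSAP (0.29, SE 0.087). Of 35 interferon response genes, 3 were called higher (8.6%), IFIT1 (0.76, SE 0.201), IFIT2 (0.54, SE 0.156) and EPSTI1 (0.94, SE 0.279), with 31 of 35 positive and a median of 0.29. The doses overlapped in EPSTI1, where replicate 2 of 10 nM held 10.96 CPM and replicate 2 of 100 nM 10.94 CPM. Of 21 heat shock chaperones, 5 were called lower (23.8%, against 3.35% of all tested genes), with HSPA9 at -0.46 (SE 0.090) and HSPA8 at -0.42 (SE 0.099). Of 30 glycolysis and hypoxia genes, the hexokinase HK2 (-0.72, SE 0.125), PFKP (-0.44, SE 0.124) and LDHA (-0.43, SE 0.119) were lower and NDRG1 (0.45, SE 0.108) and ADM (0.49, SE 0.134) higher. In this list 10% were called lower and 6.7% higher, against 3.35% and 1.78% of all tested genes. GABARAPL1, PSAP, IFIT1, IFIT2, EPSTI1, LDHA and ADM lost their calls on leaving out any 1 of at least 2 libraries, with adjusted p up to 0.0677, 0.221, 0.114, 0.165, 0.208, 0.213 and 0.0818. PSAP also lost its call with no filter on low counts (0.092).

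Of 72 respiratory chain genes, 4 were called lower (5.6%, against 3.35% of all tested genes), with CYC1 at -0.49 (SE 0.126). Of 26 p53 targets, 1 was called higher (3.8%, against 1.78% of all tested genes), TP53I3 (0.89, SE 0.233). Of 19 NRF2 and AhR targets, 1 was also called higher (5.3%), HMOX1 (0.82, SE 0.176). Of 9 metallothioneins, MT1A fell from 63.5, 49.5 and 44.9 CPM to 29.1, 27.5 and 20.4 CPM (-1.04, SE 0.158), back from a called rise at 3 nM (1.31). It was the only 1 called (11.1%, against 3.35% of all tested genes called lower). Of 19 histone genes, HIST1H2BK was higher (0.64, SE 0.144) and HIST1H4C and H2AFX lower (-0.34, SE 0.095, and -0.37, SE 0.102). These were 5.3% and 10.5% of the list, against 1.78% and 3.35% of all tested genes. Metallothioneins and histones have near-identical relatives, so which member gave the reads is uncertain. CYC1, TP53I3, HIST1H4C and H2AFX lost their calls on leaving out any 1 of at least 2 libraries, with adjusted p up to 0.142, 0.106, 0.143 and 0.287. No gene was called among 15 of MHC class I presentation, 11 of IRS and FOXO, 11 chemokines and cytokines, 21 of the endoplasmic reticulum stress response, 6 C/EBP factors and 10 reference genes, where ACTB was at -0.09 (SE 0.116) and GAPDH at -0.14 (SE 0.122). At an unadjusted p below 0.05, 2240 of the 12102 tested genes passed.

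Several of the largest changes belonged to none of these groups. CYP2J2, a cytochrome P450 that makes epoxides of arachidonic acid, fell from 44.6, 50.3 and 47.4 CPM to 14.9, 18.1 and 15.5 CPM (log2 fold change -1.55, SE 0.139). The doses were apart by a wide margin. THSD4 (-1.32, SE 0.165), the sialyltransferase gene ST3GAL1 (-1.51, SE 0.290), SH3TC2 (-1.65, SE 0.353), NR2E3 (-1.67, SE 0.390), TRABD2A (-1.67, SE 0.435) and FJX1 (-1.30, SE 0.382) were also among the 12 largest falls, the last 5 at under 25 CPM in each of the 6 libraries of the step. Lower still were SH3TC2 (6.99, 4.28 and 7.9 CPM, then 1.87, 2.4 and 1.72 CPM), NR2E3 (6.41, 6.15 and 4.86 CPM, then 1.07, 1.87 and 2.46 CPM) and FJX1 (5.83, 4.01 and 6.985 CPM, then 1.6, 1.6 and 3.44 CPM). Of the rises, SEPP1, which encodes the selenium carrier selenoprotein P, went from 13.4, 11.8 and 13.1 CPM to 35.5, 33.6 and 34.9 CPM (1.44, SE 0.169), and SLC4A4, a sodium bicarbonate cotransporter, from 9.03, 11.2 and 9.11 CPM to 25.1, 22.1 and 27.5 CPM (1.34, SE 0.218). STEAP4, a metalloreductase (1.15, SE 0.209), SELENBP1 (1.13, SE 0.250), LOC100505633 (1.13, SE 0.226), PRSS8 (1.46, SE 0.365), MYL2 (1.29, SE 0.365), SCARA5 (1.11, SE 0.339) and LUM (1.62, SE 0.406) rose from under 10 CPM. NR2E3, TRABD2A, FJX1, PRSS8, MYL2, SCARA5 and LUM lost their calls without single libraries, with adjusted p up to 0.0531, 0.116, 0.155, 0.154, 0.145, 0.164 and 0.0765. SCARA5 also lost its call with DESeq2 (0.055).

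The step could be split at 30 nM. At 30 against 10 nM 34 genes were called (0.281%) and at 100 against 30 nM 8 (0.0661%), 1 of them higher (0.00826%) and 7 lower (0.0578%), where an unadjusted p was below 0.05 for 1017 and 974 genes. The 8 were MYC, CYP2J2, REG4, CDKN2B, DUSP4, MCM7, EPHA2 and FAM3D. The median of the MAPK activity list was -0.36 in the lower part and -0.45 in the upper, that of DNA replication -0.29 and -0.20, and that of ribosome biogenesis -0.21 and -0.16. These comparisons share the libraries at 30 nM with each other and the other doses with the step, so their values are given side by side only. Over the 278 genes called in the step that also differed at least 2-fold from DMSO at 100 nM in the same direction, the median share of that change already present at 10 nM was 55.7% (SD 0.78 over the 3 libraries at 10 nM). These genes were chosen for a difference between 10 and 100 nM, which leaves out genes whose change was complete at 10 nM and holds the share down, so it describes only the genes chosen. Without replicate 2 of 30 nM, the counts were 15 and 1, and without replicate 3 of 30 nM, 21 and 26.

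A step of the same size taken from other libraries, 300 against 30 nM, gave the same sign for most of these genes. Of the 216 genes called higher between 10 and 100 nM, 205 were higher at 300 than at 30 nM (94.9%, against 50.2% of all tested genes), and of the 406 called lower, 384 were lower (94.6%, against 49.8%). Their median log2 fold changes were smaller, 0.26 and -0.23, against 0.57 and -0.56 in the step that chose them. At 300 against 30 nM itself, 62 genes were called (0.512%), and 48 genes were called in both steps, 7.7% of the 622 and 77.4% of the 62, all 48 in the same direction. They included MYC (-0.61), CYP2J2 (-1.36), ETV4 (-1.15), DUSP6 (-1.28), MUC2 (-0.69), REG4 (-0.48), PKP2 (-0.83), CDKN2B (0.68), BMF (0.68), CD36 (0.64) and SEPP1 (0.70). The count of 62 fell to 18 without replicate 2 of 30 nM and to between 20 and 38 without 1 of the other 5 libraries.

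**Figure D5:**
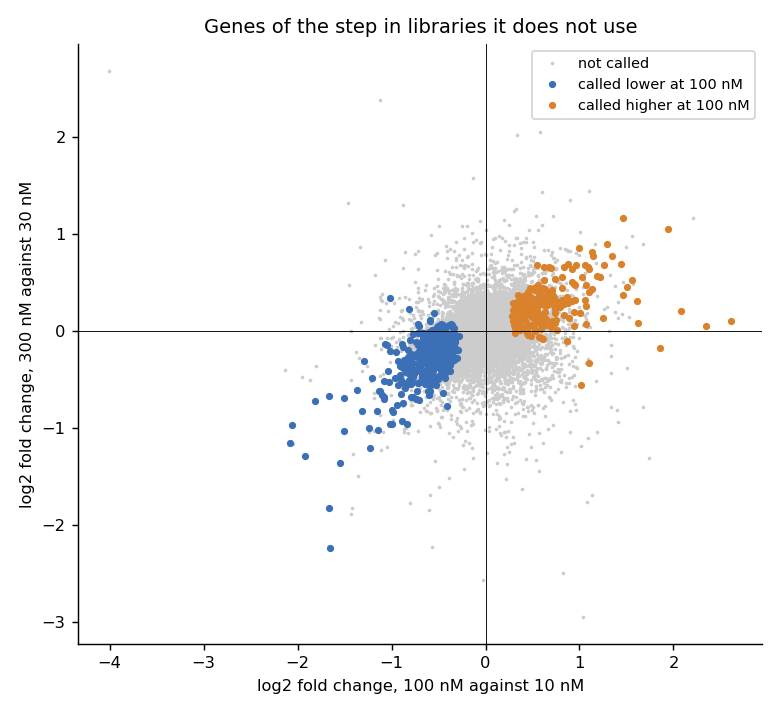
Log2 fold change of each of the 12102 tested genes at 100 against 10 nM (x axis) and at 300 against 30 nM (y axis), from libraries that are not shared. Blue points were called lower and orange points higher at 100 nM; 384 of 406 blue points lie below 0 and 205 of 216 orange points above it.

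Genes of the step were compared with 3 nM, below it. At 3 nM against DMSO 1615 of all tested genes were called (13.3%), 806 higher (6.66%) and 809 lower (6.68%). Of the 216 genes higher in the step, 72 had been called higher at 3 nM, 6 lower and 138 neither. Of the 406 lower in the step, 112 had been called lower, 39 higher and 255 neither. Whether 39 of 406 differs from the 6.66% of all tested genes called higher at 3 nM was not tested. The 39 included MCM3, FEN1, PCNA, E2F1, TYMS, FASN, MT1A, HSPA8, CDK2, LDHA and SCD. The call of SCD in the step (-0.29, SE 0.093, edgeR adjusted p = 0.0496) was lost on leaving out any 1 of the 6 libraries, with RLE scaling (0.0507) and with no filter on low counts (0.0914), with an adjusted p up to 0.197. LAMB3 was among the 6 called lower at 3 nM and higher in the step.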

How the data were processed

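Counts per gene, as whole numbers with no normalization, were deposited by the authors for each library and as 1 matrix with the same values. Per the submitters' processing notes, reads were placed on hg19; no aligner or counter is given in the sources used here. Counts of molecules amplified more than once were not collapsed, so a count is not a number of molecules, and the effect on the p-values was not tested. The 10 spike-in rows held 0 counts and were left out. Genes were filtered with filterByExpr, scaled by TMM and fitted with edgeR 4.0.16 (R 4.3.3) as a robust quasi-likelihood model of all 36 libraries in 12 groups (24 residual degrees of freedom). Doses were contrasted in that model. For DMSO, both chips were tested and the larger p-value was adjusted, with the same sign required. CPM use TMM library sizes, with a prior count of 1 for log2 values. A call needs an adjusted p below 0.05.

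Lists are described by their counts and median only. The members and the 48 lists were chosen with earlier results of these data known. Named are the 12 called genes that rose most and the 12 that fell most among those that reach a mean of 5 CPM at either dose and whose doses do not overlap. Also named, without those limits, are up to 4 called members of each list by adjusted p, the whole MAPK activity list and the 2 most abundant members of lists without calls. Other names were chosen after their values were seen. Groups come from the labels, and replicate numbers were not treated as pairs, since same-numbered libraries correlated at 0.156, -0.053 and 0.264 in their deviations. DESeq2 1.42.0, limma 3.58.1, other scalings, filters and left-out libraries were tried. Promoters come from RefSeq (GRCh38.p14). The procedure was tested on simulated data. Figures used Python 3.11.15, pandas 2.3.3 and matplotlib 3.10.9. Some genes are not reported here.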

Additional observations from a re-analysis of the deposited data

How the results depend on the processing

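The 622 calls of the step, 216 higher and 406 lower, were 1030 when only the 6 compared libraries were fitted (453 higher, 604 calls shared) and 1300 (532 higher, 768 lower) without the 5 libraries of other doses that agreed least with their replicates, a setting chosen after seeing the data. The share called higher was 34.7% and became 44% with only the compared libraries. With the replicate number as a block, all libraries gave 612 (600 shared) and the compared libraries alone 1590 (741 higher, 849 lower) with 38 ribosome biogenesis genes lower, against 25; the numbers are not known to pair the cultures, and 4 of 6 libraries correlated best with their own number. DESeq2 gave 632 (587 shared) and limma-voom 630 (589 shared). On leaving out 1 library, the calls ranged from 339 to 536, those higher from 111 to 197, those lower from 225 to 339, DNA replication genes lower from 19 to 25, ribosome biogenesis genes from 16 to 22, and the share reached at 10 nM from 55.4% to 57.3%. The 34 calls of 30 against 10 nM became 16 with only the compared libraries, 61 with the block as well and 53 with no filter on low counts (7 to 24 without 1 library). The 8 of 100 against 30 nM became 5, 2 and 58, and 15 with DESeq2 (1 to 26 without 1 library). The 62 of 300 against 30 nM became 19 and 2 with the block (18 to 38 without 1 library), and the 1615 of 3 nM against DMSO 2506 with the block and 3137 against the mean of the DMSO groups (1247 to 1326 without 1 library). The cause was not tested. Of 121 named called genes followed over the settings, 67 kept their call in all 16 settings, 38 lost it only without 1 library and 16 in another setting. Other called genes named in the text were not followed, such as DHODH, PAICS, POLR1C, PDK4, PNPLA2, CPT1A, PFKP, PSAT1 and SHMT2. Signs turned in genes that were not called. CEBPG was -0.021 with limma-voom and between -0.269 and 0.162 without 1 library. Without 1 library, INSR ranged from -0.081 to 0.054, IL18 from -0.07 to 0.083, MAP2K2 from -0.104 to 0.041, EPHA4 from -0.352 to 0.056, PSME1 from -0.142 to 0.03, IGF1R from -0.023 to 0.16 and HSP90B1 from -0.026 to 0.071.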

Other observations

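Among genes that no comparison above turns on, the 2 members with the highest level in each list without calls gave these values in the step. IL32, a cytokine, was at 261.0, 262.8 and 276.7 CPM at 10 nM and at 278.9, 315.8 and 318.1 CPM at 100 nM, higher in all 3 libraries without passing the test (log2 fold change 0.19, SE 0.100, edgeR adjusted p = 0.302). HLA-E, a class I molecule read by natural killer cells, was at 300.9, 308.5 and 310.1 CPM and then 318.9, 364.3 and 362.3 CPM (0.19, SE 0.215). The second members of those lists, the cytokine IL18 and the proteasome activator subunit PSME1, were at -0.01 (SE 0.106) and -0.05 (SE 0.103). Of the C/EBP factors, CEBPA was at -0.30 (SE 0.256) and CEBPG at 0.02 (SE 0.268), with doses that overlapped in both. HSP90B1, a chaperone of the endoplasmic reticulum, was at 0.02 (SE 0.079) and CALR at 0.13 (SE 0.129). The insulin receptor INSR was at -0.03 (SE 0.105) and IGF1R at 0.08 (SE 0.099).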
